A study of Mus musculus with 5 samples.

Results

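Progenitors and neurons were compared in a motor neuron differentiation of mouse embryonic stem (ES) cells, between the samples of Day4 and Day7. The comparison takes 2 of the 5 samples of the series. Its members are the genes whose log2 signal changed 2-fold or more between both arrays, which were 5645 of the 19897 named genes measured. A gene counted only if its probe was well above background on at least 1 of both arrays and all its probes with a value moved the same way. The series follows male wild-type cells from the ES state through Day2, Day3, Day4 and Day7, with 1 microarray per time point. Total RNA was isolated with Trizol (RIN > 9), and Cy3-labelled copies of it were put on 1-colour Agilent arrays. By its label, the Day4 sample was embryoid bodies after 2 days of retinoic acid (RA), and the Day7 sample motor neurons after 5 days of RA, although its tissue field also reads embryoid bodies. The treatment field has RA and Shh added between day 2 and day 5, while the methods of the study name the smoothened agonist SAG in the place of Shh.

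As background, spinal motor neurons arise from dividing progenitors in the ventral part of the neural tube. RA gives neural tissue a hindbrain and spinal cord character, and the hedgehog signal made by the floor plate at the ventral midline sorts progenitors into domains, of which the domain with Olig2 gives rise to motor neurons. Once they leave the cell cycle, these cells turn on factors such as Isl1, Isl2 and Lhx3, then the genes for acetylcholine, axons and synapses.

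Signals are given on the log2 scale after quantile normalization over the 5 arrays, and changes are Day7 minus Day4. With 1 array per time point no test could be made, and the number of arrays limits the precision of every value. The median error that the scanner software gave for a change measured on both arrays was 0.20 on the log2 scale, and this error leaves out differences between cultures. Day4 shared a slide with the ES, Day2 and Day3 samples, and Day7 alone was on slide 2, so effects of the slide and of the day cannot be told apart. At Day4, 65.7% of the probes were well above background, and 62.4% at Day7. The Day2 array stood apart with 86.7%, and it entered the normalization. Of the ERCC control probes 66.7% were well above background at Day2, against 4.2% to 9.4% on the other arrays. A normalized signal as low as 2.88, that of Dbx1, also passed at Day2. Standing well above background at Day2 therefore says less about detection than it does on the other arrays. Negative control spots had a median raw signal of 31.5 at Day4 and 70 at Day7, and the median log2 signal before normalization was 5.31 at Day4 and 6.50 at Day7. The spots for E1A, a control RNA that is added to the label mix, had a median log2 signal of 16.3 at Day4 and 6.79 at Day7. On the ES, Day2 and Day3 arrays this median was 16.4, 16.3 and 15.8, so the Day7 array had much less of this control signal. Its brightest E1A probe was at 14.95 at Day7 and 18.98 at Day4.

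The labels were first set against the markers of the cell types. Doublecortin (Dcx), a microtubule protein of young neurons, had a log2 signal of 3.99 in ES cells, 6.99 at Day2, 6.15 at Day3, 8.02 at Day4 and 15.60 at Day7 (the signal did not stand well above background in ES cells). Isl1, a homeodomain factor of motor neurons, had 7.18 in ES cells, 5.94 at Day2, 5.34 at Day3, 8.19 at Day4 and 13.25 at Day7. From Day4 to Day7 Dcx rose 192-fold and Isl1 33.3-fold. In such bulk samples, more or fewer cells of a type and more or less RNA per cell cannot be told apart. Tubb3 and Elavl3, which mark neurons at large, rose 18.2-fold and 22.2-fold, and Lhx3 and Chat, which mark motor neurons, rose 3.41-fold and 69.4-fold. Olig2, the factor of motor neuron progenitors, had its highest signal at Day4, with 10.34 in ES cells, 8.47 at Day2, 7.87 at Day3, 11.47 at Day4 and 7.35 at Day7. The signals of these genes go with the labels, progenitors at Day4 and motor neurons at Day7. However, the Day7 label does not name other cells whose markers were also high on that array. Shh, the ligand made by the floor plate, had 2.65 in ES cells, 2.20 at Day2, 2.87 at Day3, 3.01 at Day4 and 12.71 at Day7 (the signal did not stand well above background in ES cells, at Day2, at Day3 and at Day4). Where a gene was not well above background, its signal was raised to that of the dimmest probe that did pass as well above background on the array, if it lay under it, and the change is then a lower bound, so that Shh rose at least 403-fold. Large changes of dim genes, bounds and measured values alike, depend on the background correction, and under normexp the log2 change of Shh was 6.42 in place of 8.65. Fabp7, the fatty acid binding protein of radial glia, had 7.06 in ES cells, 6.45 at Day2, 6.54 at Day3, 7.76 at Day4 and 17.45 at Day7. Its rise of 829.8-fold was the largest of all genes measured on both arrays.

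Markers of other cell types were examined too. The pluripotency factor Pou5f1 was at 8.90 at Day4 and 8.22 at Day7. The signals of Sox2, a factor of ES cells and neural progenitors alike, were 11.44 at Day4 and 11.93 at Day7, so it passed 2-fold in neither direction, and the probes of Sox1 went opposite ways. Of the blood and endothelial markers, Ptprc was well above background at neither Day4 nor Day7, Pecam1 was at 7.84 at Day4 and 7.05 at Day7, and the embryonic globin Hba-x fell 11.9-fold. T (brachyury) and Myog, markers of mesoderm and muscle, and Afp, a marker of visceral endoderm, were also not well above background on either array. Other markers of these lineages were well above background at Day4, namely Actc1 of muscle and Sox17 and Ttr of endoderm. All were lower at Day7, and their values are given with their lists below.

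**Figure D1:**
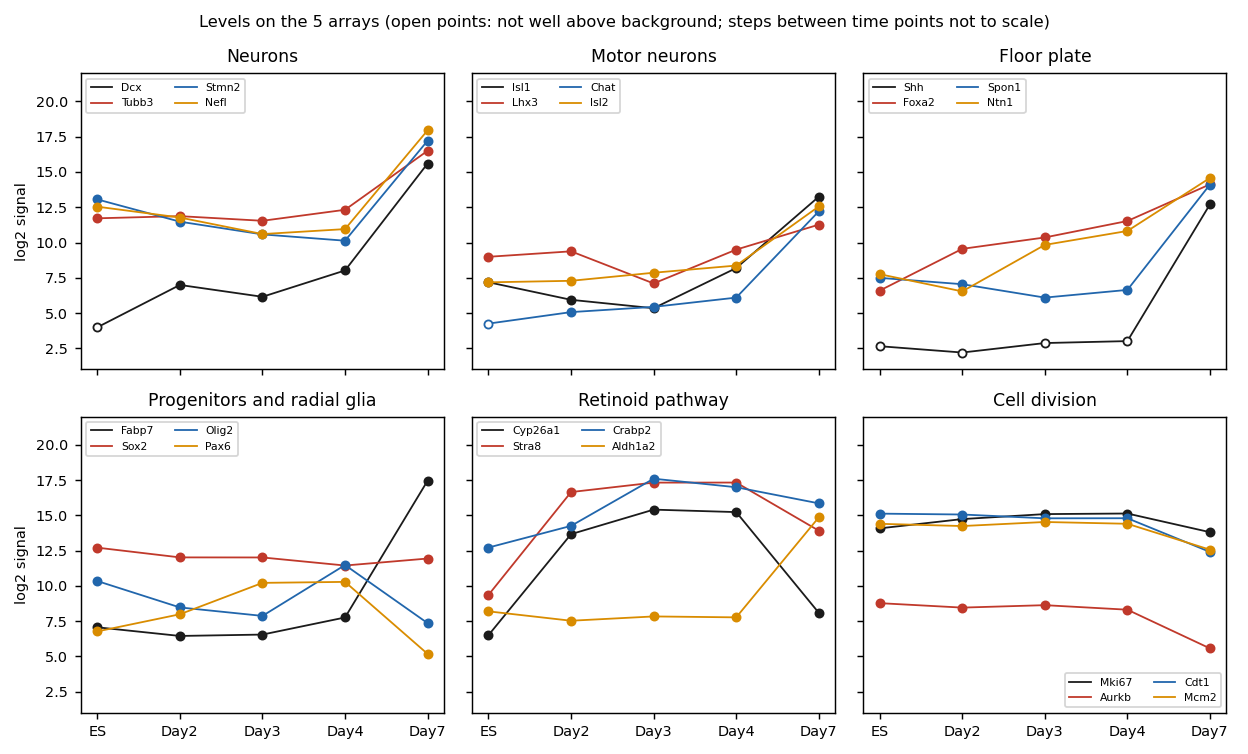
Log2 signal after quantile normalization of 24 genes on the 5 arrays, from ES cells to Day7, in 6 groups of genes; each point is 1 array, open points were not well above background, and the steps between time points are not to scale. Neuronal, motor neuron and floor plate genes such as Stmn2 and Shh were highest at Day7, whereas Olig2, Pax6, Cyp26a1 and the cell division genes were higher at Day4. Without normalization the median changes of the DNA replication and mitotic lists described below were only -0.19 and -0.07.

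Of 16082 genes with a value, 2786 were raised 2-fold or more from Day4 to Day7 (17.3%) and 2859 were lowered (17.8%), and 9206 changed by less. The probes of another 1231 genes went different ways, of which 184 passed 2-fold by their brightest probe, and 3815 of the named genes were well above background on neither array. Large changes lay mostly on the side of the raised genes: 1378 rose 4-fold or more against 693 that fell as much, and 386 rose 16-fold or more against 35. Of the raised genes 548 are lower bounds because they were not well above background at Day4, and of the lowered genes 322 because they were not at Day7. The median change of all genes with a value was -0.12. This median and the shares over all genes with a value (17.3% and 17.8%) are the reference for the counts of every list below. The lists are counted over their genes on the array, and in some lists a part of these had no value. Several probes backed 632 of the raised and 562 of the lowered genes. The genes nearest the threshold were Cdkl3 (1.0009, raised) and Ehbp1 (0.9994, not counted), and on the other side Tdrd12 (-1.0001, lowered) and AI987944 (-0.99985, not counted). Of 17393 probes with a value but no gene name here, 2451 were raised (14.1%) and 2440 lowered (14%), against 17.8% and 18.8% of the named probes. These counts rest on the normalization. Without it, when the overall brightness of each array enters every change, 8257 genes were raised and 522 lowered.

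**Figure D2:**
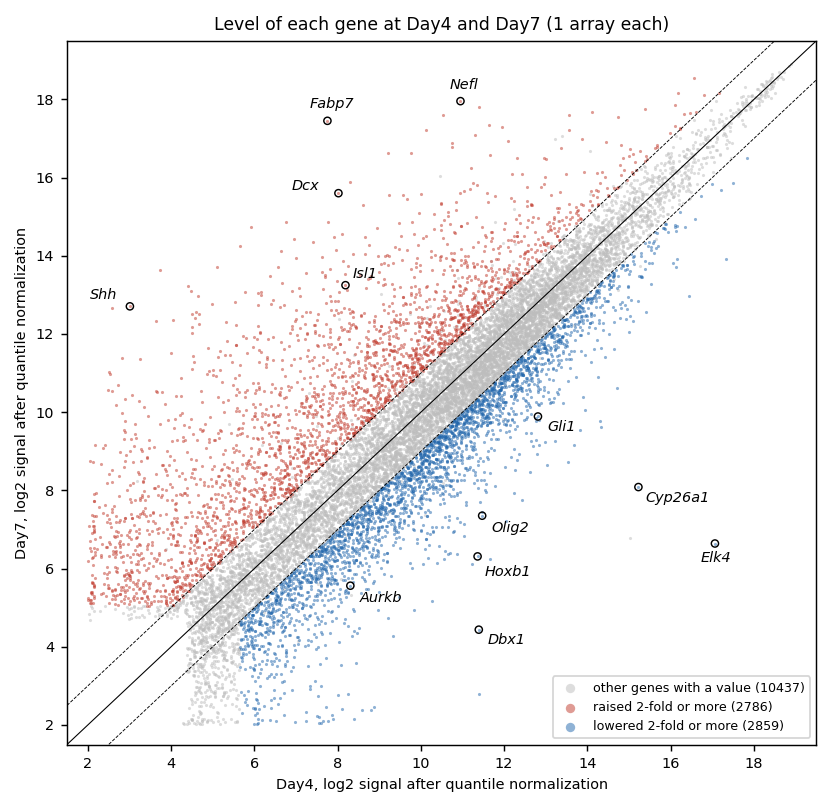
Each point is a gene with a value, by its log2 signal after quantile normalization at Day4 (horizontal axis) and at Day7 (vertical axis), with 1 array each; dashed lines mark a 2-fold change, and the genes under background are drawn at their own signal. Of the 2786 raised genes 386 rose 16-fold or more, Fabp7 and Shh among them. Of the 2859 lowered genes 35 fell as much, with Cyp26a1, Dbx1 and, farthest, the probe of Elk4. These counts take lower bounds for genes under background, so some genes drawn farther than 16-fold from the diagonal, such as Olfr6, are not in them.

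Among the largest rises measured on both arrays, Fabp7 was followed by the splicing factor Rbfox1, at 5.92 at Day4 and 14.74 at Day7 (450.2-fold), and Enpp2, which makes lysophosphatidic acid, at 5.11 at Day4 and 13.72 at Day7 (390.4-fold). Enpp2 had been higher before Day4, with 12.40 in ES cells, 9.04 at Day2 and 5.50 at Day3. Pcp4, a calmodulin binding protein, rose 384-fold, and Dner, a neuronal transmembrane protein with EGF repeats, 220.2-fold. The adhesion genes Cdh13 and Ctnna2 rose 194-fold and 180.0-fold, the endopeptidase gene Ecel1 172-fold, the phosphatase gene Dusp26 142-fold and the surface protein gene Cd200 139-fold. Among genes not well above background at Day4, the largest lower bound was that of Ptpn5, the phosphatase STEP of neurons, with at least 763-fold, a log2 change of 9.58 that was 7.45 under normexp. Resp18, of secretory granules, rose at least 454-fold, Iqsec3, of inhibitory synapses, at least 248-fold, and Trim67 at least 230.0-fold.

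The largest measured fall but that of Elk4 was in Cyp26a1, which degrades RA (141-fold). Next came Sfrp5, a secreted Wnt antagonist, at 11.65 at Day4 and 6.25 at Day7 (42.2-fold), Pax6 (34.5-fold), the lymphotoxin gene Ltb (34.4-fold) and Hoxb1 (33.1-fold). The tight junction genes Cldn6 and F11r fell 28.4-fold and 23.4-fold, calponin (Cnn1) 28.2-fold and skeletal actin (Acta1) 25.2-fold. Espin (Espn), which bundles actin, fell 18.9-fold, Pmp22 22.7-fold, and the secreted protein gene Ecm1 26.1-fold. Cxcl5, a chemokine gene, went from 11.40 at Day4 to 2.79 at Day7, not well above background, a fall of at least 107-fold and a log2 change of -6.74 that was -4.88 under normexp. Others that were not well above background at Day7 were Duoxa2 (at least 18.5-fold), Agxt (at least 17.7-fold) and the olfactory receptor gene Olfr6 (at least 15.3-fold), which at Day4 had 8.86, 8.80 and 8.59.

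Elk4 needs care. The probe that stands for it had 15.21 in ES cells, 15.36 at Day2, 15.61 at Day3, 17.06 at Day4 and 6.64 at Day7, a fall of 1372-fold, but its other probes were at 6.97 and 6.34 and at 5.95 and 5.8 on both arrays. A search made after these values were seen, for probes above 12 on all arrays of slide 1 and below 8 at Day7, found 4 probes: this one, a probe of Rims1 and 2 with no gene name. The Rims1 probe had 13.04 in ES cells, 15.02 at Day4 and 6.79 at Day7, whereas the other Rims1 probe was at 5.21 and 6.4. The unnamed probes fell by 10.47 and 10.57. The E1A control spots dropped between the same arrays, from a median of 16.3 to 6.79, and their part in these 4 probes was not tested.

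All 24 genes of the general neuronal list were raised, with a median log2 change of 4.95 against -0.12 for all genes with a value. Myt1l, a zinc finger factor of neurons, was at 4.51 at Day4, not well above background, and 12.01 at Day7 by its brightest probe (at least 181-fold). Another Myt1l probe was well above background on both arrays, at 4.58 at Day4 and 10.59 at Day7, a smaller log2 change of 6.01. Stmn2, a stathmin of growth cones, had 13.06 in ES cells, 11.48 at Day2, 10.58 at Day3, 10.13 at Day4 and 17.22 at Day7. Its signal went down at each earlier step, and in the last it rose 136-fold. The axonal microtubule protein tau (Mapt) was at 9.77 at Day4 and 16.64 at Day7, and all its probes rose by 6.85 or more. Stmn3 rose 71.4-fold. Every gene of this list was well above background on at least 1 of both arrays.

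The skeleton of the axon moved with them. Of 18 genes for neurofilaments and the neuronal cytoskeleton, 15 were raised and none was lowered, with a median of 4.05. The neurofilament genes Nefm and Nefl were at 8.30 at Day4 and 15.88 at Day7 (193-fold) and at 10.95 at Day4 and 17.96 at Day7 (128-fold). The related Ina rose 55.5-fold, gamma-synuclein (Sncg) 134-fold and Stmn4 40.4-fold. Kif5a, a motor of axonal transport, had probes that disagreed: the brighter was at 10.47 and 16.04, and the other at 7.63 and 7.01.

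Transcription factors of motor neurons were raised in 19 of 24 cases and lowered in 1, with a median of 2.05. Aldh1a2, counted here because brachial motor neurons make RA with it, had 8.19 in ES cells, 7.52 at Day2, 7.83 at Day3, 7.76 at Day4 and 14.85 at Day7 and rose 136-fold. Onecut3, at 5.02 at Day4 and 10.95 at Day7, rose 61.0-fold, and Ebf1, a helix-loop-helix factor of young neurons, at 6.31 at Day4 and 11.35 at Day7, rose 33.0-fold. Isl2, the relative of Isl1, rose 18.2-fold to 12.56. Lhx3 was already at 9.50 at Day4 and reached 11.27. Lhx1, which marks motor neurons that project to the dorsal limb, was the gene that fell, from 7.89 to 6.44 (2.73-fold). Foxp1, the factor of limb-innervating columns, was at 12.91 at Day4 and 13.08 at Day7 by its brightest probe, and its probes went different ways. Mecom and Ebf2 did not pass 2-fold, at 5.61 at Day4 and 5.01 at Day7 and at 7.85 at Day4 and 7.66 at Day7. Mnx1 had no named probe here and was not analysed.

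Of 15 cholinergic and motor effector genes, 12 were raised and none was lowered, with a median of 3.83. Chat, which makes acetylcholine, had 4.25 in ES cells, 5.07 at Day2, 5.44 at Day3, 6.09 at Day4 and 12.21 at Day7 (the signal did not stand well above background in ES cells). Slc18a3, which loads it into vesicles, rose 62.4-fold to 15.54, and Slc5a7, which takes up choline, rose at least 316-fold from signals not well above background to 12.36. The vesicle protein gene Slc10a4 rose 45.0-fold, and Ngfr, the low-affinity neurotrophin receptor that embryonic motor neurons carry, 55.4-fold. Mmp9, a marker of fast motor neurons, was at 5.66 at Day4 and 4.86 at Day7. The probes of agrin (Agrn), which clusters receptors at the muscle, disagreed: 15.32 and 15.63 for the brighter and 7.40 and 6.01 for the other.

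Synaptic vesicle and release genes were raised in 39 of 49 cases and lowered in none, with a median of 2.33. Secretogranin 2 (Scg2) and the calcium sensor gene Syt4 rose from signals not well above background, at least 308-fold and at least 177-fold. Under normexp the log2 change of Scg2 was 5.44 in place of 8.27. Synaptotagmin 1 (Syt1), the sensor for fast release, went from 6.16 to 13.01 (115-fold), chromogranin B (Chgb) rose 94.8-fold and complexin 1 (Cplx1) 55.9-fold. For 4 genes the probes disagreed. Piccolo (Pclo), of the active zone, was at 10.82 at Day4 and 10.63 at Day7 by its brightest probe, while its other 3 probes rose, 1 by 3.63 and 2 by at least 3.54 and 4.65. The probes of Shank1, Homer1 and Rims1 were the others.

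Of 43 voltage-gated channel genes on the array, 24 were raised, 2 were lowered and 7 were well above background on neither array. The median was 2.10, or 1.67 when both arrays had to be well above background. The sodium channel gene Scn3a was at 4.66 at Day4 and 12.98 at Day7 (320.1-fold), a log2 change of 8.32 that was 6.11 under normexp. Kcnd2, a channel of the A-type current, and its partners Kcnip4 and Kcnip1 all rose from signals not well above background, at least 99.1-fold, at least 126-fold and at least 68.0-fold. The pacemaker channel gene Hcn2, at 15.67 at Day4 and 14.59 at Day7, fell 2.12-fold, while its other probe was at 10.13 and 10.09. Scn8a was at 13.25 at Day4 and 12.52 at Day7. The calcium channel gene Cacna1d had a probe at 6.37 and 5.22 and another at 3.57, not well above background, and 7.26.

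Among 52 genes for transmitter receptor subunits, 30 were raised, 3 were lowered and 3 were well above background on neither array, with a median of 2.25, which was 1.21 when both arrays had to be well above background and 1.16 under normexp. Subunits of AMPA receptors for glutamate stood high in this list: Gria4 rose 84.7-fold, and Gria2 rose at least 78.4-fold from signals not well above background. The glycine receptor gene Glra2 rose at least 43.3-fold. Lowered genes included the GABA receptor gene Gabrg3 (2.46-fold) and the serotonin receptor gene Htr3a (at least 2.49-fold). Chrna7 was at 6.19 at Day4 and 5.32 at Day7. For Grin1, the obligatory subunit of NMDA receptors, the brighter probe was at 5.45 and 8.30 and the other at 5.14 and 5.09. Probes also disagreed for Gabra3, Grik2 and Grm5.

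Axon guidance genes followed the same course in most cases. Of 58, 34 were raised, 2 were lowered and 2 were well above background on neither array, with a median of 1.89. The adhesion molecule gene Chl1 rose at least 395-fold from signals not well above background, and contactin 1 (Cntn1) 32.6-fold. Slit1 and Slit2, repellents made by the floor plate and by motor neurons themselves, were at 9.78 at Day4 and 14.86 at Day7 and at 8.53 at Day4 and 13.51 at Day7, rises of 34.0-fold and 31.4-fold. The netrin receptor gene Unc5c rose 27.4-fold, whereas its relative Unc5b fell 3.46-fold. Epha5 showed how much a gene can depend on its probe: the brighter was at 14.41 and 13.82, while the other went from 5.51 to 10.92. Probes disagreed as well for the semaphorin genes Sema3a and Sema6d. Ackr3 passed 2-fold downwards (-1.04), but without normalization its change was 0.29.

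Of 23 neurotrophic receptors and ligands, 7 were raised, 5 were lowered and 2 were well above background on neither array, where 17.3% of all genes were raised and 17.8% lowered. Their median was 0.61, or 0.28 with no filter and 1.82 without normalization. Ntrk3, the receptor for neurotrophin 3, rose 66.4-fold, and Ntf3, its ligand, 25.0-fold to 11.86. Ret and Gfra2, a receptor pair for GDNF family ligands, rose 7.55-fold and 15.9-fold. The receptor gene Gfra3 and its ligand gene Artn fell 3.14-fold and 3.62-fold. Nrtn and Cntfr fell 2.73-fold and 3.12-fold. Ntrk2, the receptor for BDNF, had probes that disagreed: the brightest was at 9.96 and 9.58, and another at 2.36, not well above background, and 10.19. Probes disagreed for Lifr, Gfra4 and Vegfa too.

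Floor plate genes were among the most raised lists. Of 20 genes, 16 were raised and 1 was lowered, with a median of 3.37. Besides Shh, vitronectin (Vtn) was at 6.75 at Day4 and 14.88 at Day7 (279-fold), and F-spondin (Spon1), which floor plate cells secrete, at 6.64 at Day4 and 14.11 at Day7 (177-fold). Ferd3l rose at least 53.2-fold. Foxa2, which drives floor plate fate, had 11.52 at Day4 and 14.12 at Day7, and its relative Foxa1 rose 12.3-fold to 12.97. Nkx2-9, a factor of the most ventral progenitors, was the gene that fell, from 12.89 to 10.23 (6.35-fold). Lmx1a and Lmx1b, which join Foxa2 in the floor plate of the midbrain, were at 6.23 at Day4 and 5.55 at Day7 and at 7.40 at Day4 and 6.97 at Day7. The probes of Bmp1 disagreed.

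While the ligand rose, the genes that receive and report the hedgehog signal went down. Of 14 genes, 10 were lowered and none was raised, with a median of -1.59 that was -0.35 without normalization, and all were well above background on both arrays. Gli1, which hedgehog signalling turns on, had 11.88 in ES cells, 12.33 at Day2, 11.84 at Day3, 12.81 at Day4 and 9.89 at Day7 and fell 7.58-fold. Ptch1, the receptor and also a target, had 8.19 in ES cells, 8.16 at Day2, 9.27 at Day3, 10.15 at Day4 and 8.05 at Day7 and fell 4.28-fold. Both were highest at Day4. The transducers Gli2 and Gli3 fell 8.12-fold and 8.97-fold, and the coreceptor gene Gas1, at 11.37 at Day4 and 8.66 at Day7, 6.54-fold. Hhat, which attaches a fatty acid to the ligand, and Disp1, which releases it, did not pass 2-fold, at 9.24 at Day4 and 10.09 at Day7 and at 9.78 at Day4 and 10.08 at Day7. The treatment field has the inducer added between day 2 and day 5, and its part in the fall was not tested.

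Progenitor domain factors of the ventral neural tube were lowered in 12 of 20 cases and raised in 4, with a median of -1.95 that was -0.82 without normalization and -1.33 under normexp, and 2 were well above background on neither array. Dbx1, of the p0 domain, had 9.30 at Day3 and 11.39 at Day4 and was not well above background at Day7 (at least 107-fold). Pax6 had 6.77 in ES cells, 7.98 at Day2, 10.21 at Day3, 10.28 at Day4 and 5.17 at Day7 by its brighter probe (34.5-fold), and its other probe fell by 0.96 or more. Olig2 fell 17.4-fold, Msx1, a dorsal factor, 10.3-fold and Prdm12 at least 7.74-fold. The genes that rose were Nkx2-2, at 7.92 at Day4 and 11.01 at Day7 (8.52-fold), Irx5 (4.42-fold), Nkx6-1 (2.99-fold) and Irx3 (2.06-fold). Nkx2-2 marks the p3 domain beside the floor plate, and Nkx6-1 is kept in motor neurons and in the floor plate, so Nkx6-1 is not a marker of dividing cells alone.

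Of 30 neuroepithelial and radial glia genes, 8 were raised, 7 were lowered and 1 was well above background on neither array, against 17.3% raised and 17.8% lowered over all genes, with a median of 0.49 that was 0.26 with the mean over probes. Next to Fabp7, the raised genes were led by Hey1, a target of Notch, at 9.66 at Day4 and 14.14 at Day7 (22.3-fold), and by Rfx4 (7.67-fold), Ednrb (6.72-fold) and Fgfr3 (4.97-fold). The other Fgfr3 probe rose by only 0.66. The lowered genes beside Pax6 and Gli3 were Lin28a, at 14.99 at Day4 and 12.06 at Day7 (7.63-fold), Lin28b (5.50-fold) and Sox3 (4.28-fold). Lin28a and Lin28b are RNA-binding proteins of early progenitors that block the maturation of let-7. For Notch1 the probes disagreed, as they did for Sox1 and Sox21.

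In the list of 33 proneural factors and Notch pathway genes, 6 were lowered, 4 were raised and 2 were well above background on neither array, numbers that are near the shares over all genes (17.8% and 17.3%), and the median of -0.08 became 1.15 without normalization and 0.01 with normexp background correction. Neurog2, which drives motor neuron progenitors out of the cycle, had 4.0 in ES cells, 4.12 at Day2, 6.02 at Day3, 10.37 at Day4 and 7.06 at Day7 (the signal did not stand well above background in ES cells) and fell 9.89-fold from its height at Day4. Neurog1, not well above background at Day7, fell at least 6.51-fold, Neurod2 2.89-fold and the ligand gene Dll4 at least 2.76-fold. Neurog3, on the contrary, had 8.36 in ES cells, 9.28 at Day2, 8.66 at Day3, 6.65 at Day4 and 13.30 at Day7 and rose 100-fold. Nhlh2, a helix-loop-helix factor of young neurons, rose 9.53-fold, and the ligand gene Jag1 2.35-fold. Insm1 was at 11.88 at Day4 and 12.76 at Day7 and Neurod1 at 7.36 at Day4 and 7.27 at Day7 by the brighter of 2 probes that disagreed. Probes of Cbfa2t3, Rfng and Notch2 also went different ways.

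Most cell division genes were lower at Day7 in normalized values. Of 45 DNA replication genes, 35 were lowered and none was raised, with a median of -1.48, and of 58 mitotic genes 45 were lowered and none was raised, with a median of -1.36. Without normalization these medians were -0.19 and -0.07, so the fall of both lists itself, and not only its size, rests on the normalization. Ccnd2, the cyclin of neural progenitors, was at 15.41 at Day4 and 12.58 at Day7 (7.15-fold), and the licensing factor gene Cdt1 at 14.79 at Day4 and 12.40 at Day7 (5.24-fold). Cdc45, of the replicative helicase, fell 5.18-fold, cyclin E1 (Ccne1) 4.95-fold and the chromatin assembly factor gene Chaf1a 4.46-fold. Among the mitotic genes, Aurkb was at 8.31 at Day4 and 5.56 at Day7 (6.70-fold). Separase (Espl1), which cuts cohesin at anaphase, fell 5.60-fold, the kinesin gene Kif2c 4.85-fold, Mybl2, an activator of cell cycle genes, 4.08-fold, and anillin (Anln), of the cleavage furrow, 3.5-fold. All 58 mitotic genes were well above background on both arrays, so the Day7 sample still carried transcripts of cell division.

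Since many mitotic genes fell in normalized values, their promoters were searched for short motifs. These were CCAAT, the core of a cell cycle element known as CHR (TTTGAA), and CAGCTG, which proneural factors can bind. The promoters came from RefSeq (GRCm38.p6), 250 bases before to 50 after a start, and both strands were searched. Of these windows, 60.4% lay at the gene start. CCAAT stood in 74% of the 50 promoters found for 48 of the 58 mitotic genes, TTTGAA in 66% and CAGCTG in 14%. Over all 32851 promoters the shares were 37.4%, 17.9% and 16.3%. For DNA replication genes (42 promoters of 35 genes) they were 59.5%, 11.9% and 11.9%, and for general neuronal genes (40 promoters of 16 genes) 67.5%, 5% and 27.5%. Some genes have several promoters, and a match says only that the letters are present. The promoters of Espl1, Kif2c and Mybl2, which had large falls, are printed 5′ to 3′ on the strand of the gene. They differ in the motifs they hold, and whether these windows lay at the gene start was not examined. Capitals mark a motif on either strand, as ATTGG for CCAAT and TTCAAA for TTTGAA. Espl1 (chr15:102296043-102296342, plus strand) holds CCAAT and also 1 copy of TTTGAA, Kif2c (chr4:117178723-117179022, minus strand) holds TTTGAA, and Mybl2 (chr2:163054385-163054684, plus strand) holds CAGCTG.
Espl1: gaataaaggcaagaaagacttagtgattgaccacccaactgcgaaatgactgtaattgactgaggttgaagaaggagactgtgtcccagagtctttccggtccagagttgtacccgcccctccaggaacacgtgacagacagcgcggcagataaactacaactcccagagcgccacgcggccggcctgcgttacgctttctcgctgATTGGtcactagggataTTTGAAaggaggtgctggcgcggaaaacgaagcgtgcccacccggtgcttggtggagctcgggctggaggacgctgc
Kif2c: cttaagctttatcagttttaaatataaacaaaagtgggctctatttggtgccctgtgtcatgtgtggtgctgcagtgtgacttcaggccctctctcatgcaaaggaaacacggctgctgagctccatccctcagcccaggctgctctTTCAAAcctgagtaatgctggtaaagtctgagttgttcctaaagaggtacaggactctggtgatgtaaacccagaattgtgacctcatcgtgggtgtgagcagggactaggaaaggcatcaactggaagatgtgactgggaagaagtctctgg
Mybl2: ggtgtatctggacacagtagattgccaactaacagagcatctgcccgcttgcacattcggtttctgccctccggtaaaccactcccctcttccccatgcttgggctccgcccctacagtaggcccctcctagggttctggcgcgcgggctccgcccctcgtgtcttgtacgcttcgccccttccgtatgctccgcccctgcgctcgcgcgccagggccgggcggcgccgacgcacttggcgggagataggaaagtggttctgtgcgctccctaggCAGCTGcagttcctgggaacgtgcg

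Genes of cell cycle exit went both ways. Of 18 inhibitors and related genes, 6 were raised and 5 were lowered, against 17.3% raised and 17.8% lowered over all genes. The median of this list, -0.51, became 0.77 without normalization. The inhibitor genes Cdkn1c (p57) and Cdkn2d (p19) were at 13.56 at Day4 and 15.32 at Day7 (3.38-fold) and at 12.45 at Day4 and 13.55 at Day7 (2.15-fold). The retinoblastoma gene Rb1 rose 2.51-fold, Ccng2 3.42-fold and Btg1 2.10-fold. The inhibitors of the Ink4 locus went the other way: Cdkn2a fell 6.43-fold and Cdkn2b 3.38-fold. Ccng1, Trp53inp1 and Gadd45g, which p53 or stress can induce, were lowered too, but their changes were 0.08, 0.19 and 0.03 without normalization.

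**Figure D3:**
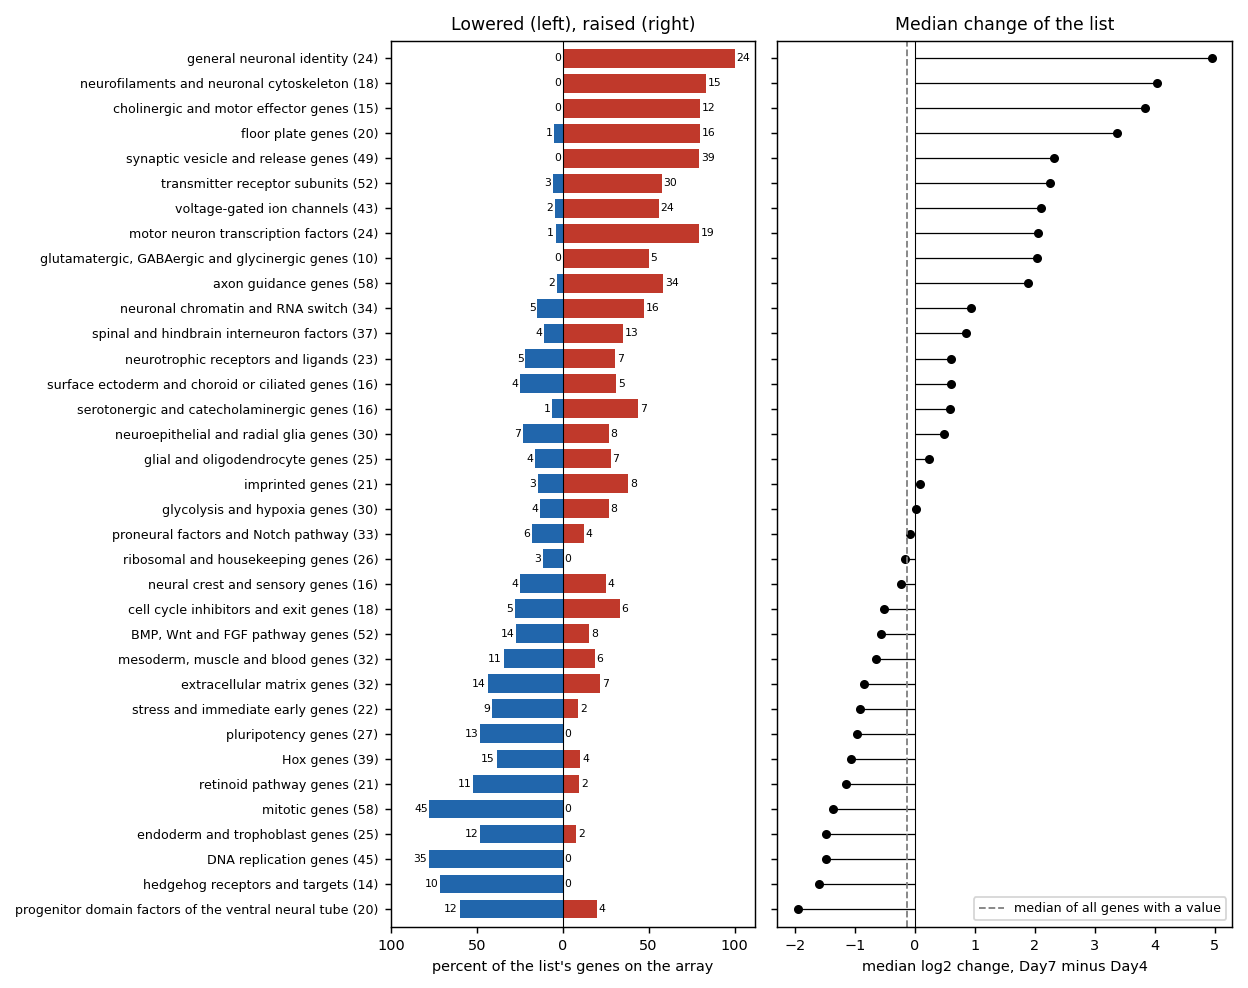
Left, the percent of the genes of each of 35 lists on the array that were lowered (left of 0) or raised (right of 0) 2-fold or more from Day4 to Day7, with their counts; right, the median log2 change of each list, with the median of all genes with a value as a dashed line. General neuronal genes have a median of 4.95 and progenitor domain factors one of -1.95, and the order at the low end changes with the settings; without normalization the medians of 10 lists, Hox genes and pluripotency genes among them, turn from negative to positive, and glycolysis and imprinted genes, near 0, turn negative under other settings.

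Genes of the retinoid pathway were lowered in 11 of 21 cases and raised in 2, with a median of -1.14, which became 0 without normalization, -0.68 under normexp and -0.82 with the mean over probes. Several of the lowered genes are ones that RA itself induces. Cyp26a1 had 6.50 in ES cells, 13.66 at Day2, 15.40 at Day3, 15.23 at Day4 and 8.09 at Day7, so that it was high from Day2 to Day4 and at Day7 lay between those signals and that of ES cells. Cyp26b1, a related enzyme, had 6.15 in ES cells, 9.37 at Day2, 11.18 at Day3, 14.71 at Day4 and 10.62 at Day7 and fell 17.1-fold. Stra8 fell 10.6-fold from 17.32, the retinol transporter gene Stra6 6.51-fold and the retinaldehyde reductase gene Dhrs3 5.79-fold. The part of the RA added to the cultures was not tested. Aldh1a2, which makes RA, was among the raised genes. Crabp1 and Aldh1a3 did not pass 2-fold, at 13.35 at Day4 and 14.15 at Day7 and at 6.07 at Day4 and 6.87 at Day7. The receptor gene Rxrg was at 12.52 and 13.03 by its brighter probe, while the other went from 6.26 to 12.93. The probes of Rara disagreed.

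Of the 39 Hox genes, 15 were lowered, 4 were raised and 8 were well above background on neither array, and the median of -1.06 became 0.23 without normalization. It rests largely on lower bounds: over the 23 Hox genes measured on both arrays it was -0.23, with 8 lowered, and with the mean over probes it was -0.61 for all. The raised genes belong to paralogue groups 3 to 5: Hoxd3 was at 10.03 at Day4 and 11.94 at Day7 (3.78-fold), Hoxb5 at 13.76 at Day4 and 15.14 at Day7 (2.60-fold), Hoxc4 at 13.63 at Day4 and 14.99 at Day7 (2.57-fold) and Hoxa5 at 12.23 at Day4 and 13.33 at Day7 (2.15-fold). Around them, several neighbours held their signals within 2-fold. Hoxa3 was at 12.64 at Day4 and 12.77 at Day7, Hoxb4 at 14.15 at Day4 and 14.12 at Day7, Hoxc5 at 11.91 at Day4 and 12.45 at Day7, Hoxb6 at 13.81 at Day4 and 14.37 at Day7 and Hoxb7 at 11.28 at Day4 and 11.30 at Day7. Hoxa2, Hoxa4 and Hoxa6 did not pass 2-fold either.

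Among the 15 lowered Hox genes, of which 3 changed sign without normalization, Hoxb1 had 3.32 in ES cells, 11.25 at Day2, 11.74 at Day3, 11.36 at Day4 and 6.31 at Day7 (the signal did not stand well above background in ES cells) and fell 33.1-fold, and Hoxd1 fell 3.87-fold. Hoxd4 fell 6.71-fold from 13.27 to 10.53, in contrast to Hoxc4 and Hoxd3. From group 7 on, Hoxa7 fell 6.90-fold and Hoxd8 4.68-fold. Hoxb9 and Hoxc9, genes of thoracic levels, went from 9.33 and 9.83 at Day4 to signals not well above background (at least 25.5-fold and at least 29.3-fold), and under normexp the log2 change of Hoxb9 was -2.99 in place of -4.67. Hoxb13 (at least 13.9-fold), Hoxc13 (at least 3.87-fold), Hoxd13 (at least 2.65-fold), Hoxc8 (at least 3.51-fold) and Hoxd9 (at least 3-fold) were not well above background at Day7 either. Hoxb2, Hoxb8 and Hoxc6 passed 2-fold only just, with changes of -1.19, -1.09 and -1.06, which were 0.07, 0.23 and 0.24 without normalization. Probes disagreed for Hoxa9 and for Hoxb3, where they were at 11.55 and 11.01 and at 11.10 and 12.12. Hoxa10, Hoxa11, Hoxa13, Hoxc10, Hoxc11, Hoxc12, Hoxd10 and Hoxd11 were well above background at neither Day4 nor Day7, and Hoxd12 gave no fold.

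**Figure D4:**
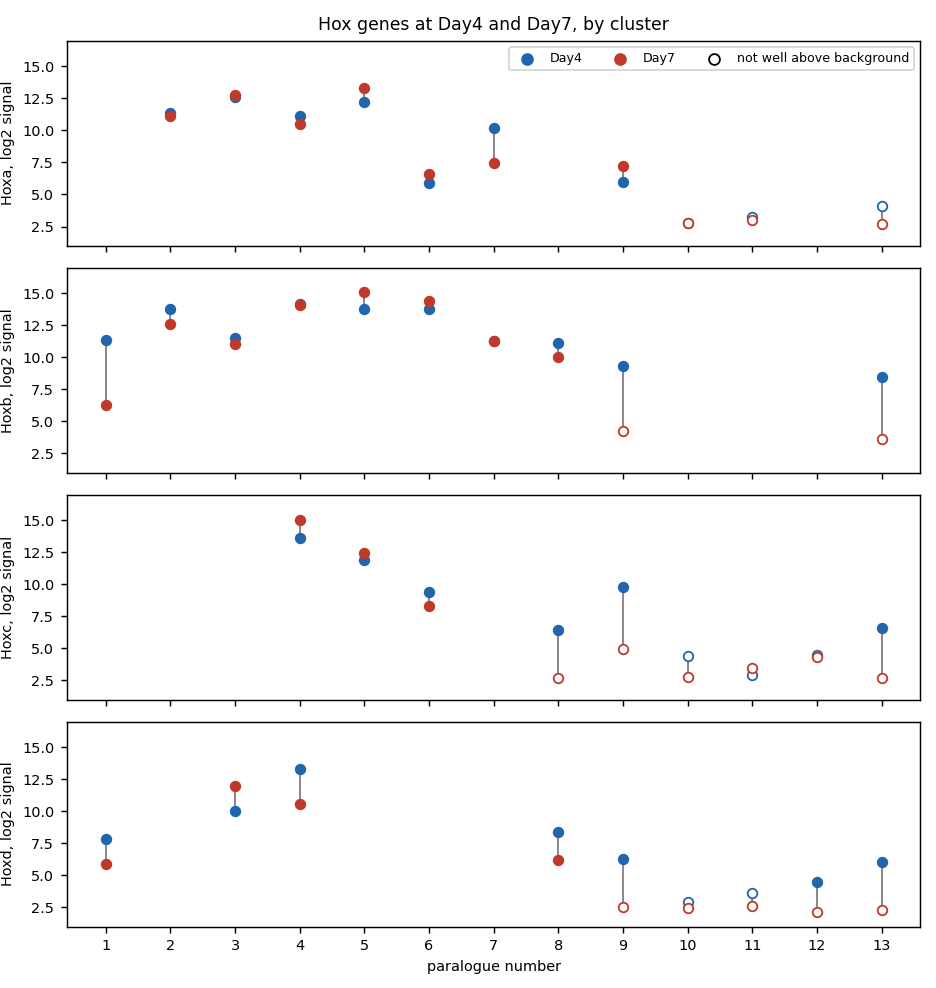
Log2 signal after quantile normalization of Hox genes at Day4 (blue) and Day7 (red), by paralogue number along each of the 4 clusters; each point is 1 array, and open points were not well above background. Hoxd3, Hoxb5, Hoxc4 and Hoxa5 are higher at Day7, while Hoxb1 and the group 9 genes Hoxb9 and Hoxc9 are far lower; without normalization Hoxb2, Hoxb8 and Hoxc6 are not lower.

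Chromatin and RNA-binding proteins that are exchanged when neurons form were raised in 16 of 34 cases and lowered in 5, with a median of 0.93. Actl6b (BAF53b), the actin-like subunit of the chromatin remodelling complex of neurons, had 4.18 in ES cells, 5.06 at Day2, 2.71 at Day3, 3.74 at Day4 and 9.69 at Day7 (the signal did not stand well above background in ES cells, at Day3 and at Day4) and rose at least 49.7-fold. The splicing regulators Celf5, Celf6 and Khdrbs2 rose 16.3-fold, 18.6-fold and 12-fold, as Rbfox1 did. On the other side stood Rest, the repressor of neuronal genes in other cells, at 12.39 at Day4 and 10.67 at Day7 (3.28-fold), and Ptbp1, which holds back neuronal splicing, at 14.99 at Day4 and 13.53 at Day7 (2.75-fold). The DNA methyltransferase gene Dnmt3b had 16.98 in ES cells, 16.22 at Day2, 14.31 at Day3, 13.27 at Day4 and 11.99 at Day7 and fell 2.43-fold. Its signal was lower at every step from ES cells on. The catalytic subunit gene Smarca4 was at 16 at Day4 and 16.55 at Day7 by its brighter probe, and its probes disagreed, as did those of Mbnl2.

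Of 37 factors of spinal and hindbrain interneurons, 13 were raised, 4 were lowered and 9 were well above background on neither array, with a median of 0.86 that was 0.25 when both arrays had to be well above background and 0.35 with no filter. Sim1, which marks V3 interneurons, was at 2.88 at Day4, not well above background, and 8.60 at Day7 (at least 23.5-fold). The sensory and dorsal factor Pou4f2 rose at least 5.26-fold. Those that fell were Wt1 (9.92-fold), Lhx2 (4.41-fold), Lbx1 (at least 2.03-fold) and Sim2, whose change of -1.11 was 0.18 without normalization. Gata2 and Gata3, of V2b interneurons, were at 9.49 at Day4 and 9.05 at Day7 and at 10.12 at Day4 and 9.67 at Day7, and Dmrt3 at 8.67 at Day4 and 8.07 at Day7.

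Genes of other transmitters were present beside those for acetylcholine. Of 10 genes for glutamate, GABA and glycine, 5 were raised and none was lowered, with a median of 2.03 that was 0.93 when both arrays had to be well above background and 1.02 under normexp. Slc17a6 (VGLUT2), which loads glutamate into vesicles, rose at least 83.0-fold to 10.43, and Slc17a8 2.97-fold. Genes of the GABA-making enzymes also rose, Gad2 at least 20.4-fold and Gad1 at least 5.65-fold, like Slc17a6 from signals not well above background, and the uptake carrier gene Slc1a1 29.7-fold. The probes of Slc32a1, the vesicular carrier of GABA and glycine, were at 6.64 and 9.22 and at 6.15 and 5.86. Slc17a7 was at 5.39 at Day4 and 3.27 at Day7 (not well above background) and Slc6a9 at 11.61 at Day4 and 11.33 at Day7. Of 16 serotonergic and catecholaminergic genes, 7 were raised, 1 was lowered and 2 were well above background on neither array, with a median of 0.58 that was 0.08 when both arrays had to be well above background. The vesicular monoamine carrier gene Slc18a2 rose 16.4-fold, Dbh, which makes noradrenaline, at least 16.2-fold, Th 4.97-fold, Nr4a2 9.25-fold and Slc6a2 4.30-fold. Slc6a4, the serotonin carrier, was at 5.65 at Day4 and 4.98 at Day7, and Maob fell 4.39-fold. The part of neurons of other kinds in the rises of shared neuronal genes was not tested.

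Of 25 glial genes, 7 were raised, 4 were lowered and 2 (S100b and Gjb6) were well above background on neither array. Over all genes 17.3% were raised and 17.8% lowered, so only the lowered glial genes were near that share. The median of the glial list was 0.24, or 0.43 when both arrays had to be well above background and 1.53 without normalization. Sparcl1, a secreted protein of radial glia and astrocytes, had 5.64 in ES cells, 5.26 at Day2, 5.79 at Day3, 7.70 at Day4 and 13.47 at Day7 and rose 54.4-fold. The gliogenic factor Nfia rose at least 17.6-fold by its brighter probe, with the other at 5.40 and 5.57, and Nfib rose 6.19-fold with all 5 of its probes raised in signal. The glutamate transporter gene Slc1a3 rose 2.51-fold. In contrast Nfix, clusterin (Clu) and Apoe fell 10.3-fold, 8.10-fold and 5.97-fold, and Cldn11 2.87-fold. Of the defining markers, Sox10 was at 7.90 at Day4 and 8.14 at Day7, Mog at 8.68 at Day4 and 8.27 at Day7, and the probes of Gfap, Mbp and Aqp4 disagreed. The brightest probe was that of Apoe at Day4 (15.03), which does not rank amounts between genes, and the part of glial cells in the rise of Fabp7 was not tested.

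Of 16 neural crest and sensory genes, 4 were raised, 4 were lowered and 1 was well above background on neither array (17.3% and 17.8% of all genes were raised and lowered), and the median of -0.23 became 0.97 without normalization. Isl1, which crest-derived sensory neurons share with motor neurons, led the raised genes. Foxd3 and Snai2, markers of early crest, rose 2.59-fold and 2.11-fold, at 4.72 at Day4 and 6.09 at Day7 and at 7.59 at Day4 and 8.67 at Day7. Erbb3 was at 5.44 at Day4 and 2.16 at Day7 (not well above background). Tfap2a passed 2-fold downwards (-1.01), but its change was 0.13 without normalization.

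Genes of mesoderm, muscle and blood were lowered in 11 of 32 cases and raised in 6. Over all genes with a value 17.8% were lowered and 17.3% raised, and 26 genes of this list had a value. The median of the list, -0.65, became 0.56 without normalization. Embryonic globin genes were prominent at Day4. Hbb-y had 5.27 in ES cells, 9.03 at Day2, 12.08 at Day3, 12.77 at Day4 and 9.30 at Day7 (the signal did not stand well above background in ES cells) and fell 11.1-fold, and Hbb-bh1 had 7.08 in ES cells, 10.66 at Day2, 12.52 at Day3, 12.27 at Day4 and 8.53 at Day7 and fell 13.4-fold. The actin gene of heart and early muscle, Actc1, fell 8.26-fold from 11.51. The raised genes were led by Dcn and Lum, secreted proteoglycans of fibroblasts, with 37.0-fold and at least 6.29-fold. Dcn went from 7.34 to 12.55. Col3a1 rose 2.71-fold, Runx1 3.98-fold and Cdh5, of endothelium, 3.06-fold. In all, 6 of the 32 were well above background on neither array, among them T, Myog and Ptprc, and the brightest probe was that of Kdr, which does not rank amounts between genes, with 13.25 and 13.65. Their part in other changes was not tested.

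Endoderm and trophoblast genes were lowered in 12 of 25 cases and raised in 2, with a median of -1.47 that was -0.39 without normalization, and the raised genes were Foxa1 and Foxa2, which the floor plate shares. The keratin gene Krt8 was at 13.72 at Day4 and 10.89 at Day7 (7.08-fold), and the epithelial adhesion gene Epcam at 10.87 at Day4 and 8.28 at Day7 (6.03-fold). The endoderm factors Gata6 and Sox17 fell 14.4-fold and at least 16.2-fold. The value for Sox17 is that of its brighter probe, which was not well above background at Day7. Its other probe was well above background on both arrays, at 7.97 at Day4 and 5.41 at Day7, a smaller log2 change of -2.57. Afp was well above background on neither array, as were 3 others of the list, and Ttr was at 5.58 at Day4 and 4.45 at Day7 (not well above background). None of the 27 pluripotency genes was raised and 13 were lowered, and their median of -0.95 became 0.34 without normalization. Sall4 was at 12.65 at Day4 and 9.96 at Day7 (6.45-fold), Tfcp2l1 fell 4.08-fold, Dppa4 4.04-fold and Dppa3 3.49-fold. Nanog was lowered by 2.27-fold, and its change was 0.13 without normalization. Lefty1 and Lefty2 were at 11.09 at Day4 and 11.27 at Day7 and at 9.33 at Day4 and 10.17 at Day7, and Tbx3 at 10.52 at Day4 and 10.57 at Day7. All 27 were well above background on both arrays, and the part of cells left undifferentiated in any other change was not tested.

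Genes of the matrix around the cells were lowered in 14 of 32 cases and raised in 7, against 17.8% lowered and 17.3% raised over all genes. The median of this list, -0.85, became 0.37 without normalization. The laminin genes of basement membranes, Lama5 and Lamb1, were at 14.08 at Day4 and 11.28 at Day7 (6.96-fold) and at 13.94 at Day4 and 11.47 at Day7 (5.54-fold). Aggrecan (Acan) fell 7.50-fold, Col6a1 6.29-fold and fibrillin 2 (Fbn2) 5.12-fold. The genes that rose included neurocan (Ncan), the proteoglycan of nervous tissue, at 6.28 at Day4 and 11.16 at Day7, and the collagen genes Col5a2 (at least 7.49-fold) and Col9a1 (4.52-fold). The other Col9a1 probe rose by only 0.54.

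In the BMP, Wnt and FGF pathways 14 of 52 genes were lowered, 8 were raised and 3 were well above background on neither array, against 17.8% lowered and 17.3% raised over all genes, and the median of -0.56 became 0.62 without normalization and -0.29 under normexp. Id4, an inhibitor of helix-loop-helix factors, had 8.66 in ES cells, 6.07 at Day2, 6.49 at Day3, 7.98 at Day4 and 13.35 at Day7 and rose 41.3-fold. Fgf13, an intracellular partner of sodium channels, rose 13.4-fold, Fgf9, a ligand that motor neurons make, 6.15-fold, Fgf18 5.60-fold and Wnt3 3.65-fold. Bmp2 fell 9.52-fold, Fgf15, which hedgehog signalling can induce, 7.48-fold, the Wnt receptor gene Fzd10 5.01-fold, Lgr5 4.99-fold and Wnt11 3.09-fold. Wnt6, among the largest falls of all, went from 10.55 to 6.24 (19.8-fold). The probes of Nkd1 disagreed.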

How the data were processed

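RNA of 5 samples, 1 per time point, was measured on Agilent 1-colour arrays. The files deposited by the authors come from the scanner software (Agilent Feature Extraction 10.5.1), which had subtracted background from the intensity of every spot and evened out trends across the slide, without normalization between arrays. The authors also deposited a table of log2 values, which equalled the log2 of that intensity minus a constant per array within 0.01 for 100% of the probes; its medians were -3.53 at Day4 and -3.66 at Day7, and it served as an alternative. Samples were grouped by the time point in their labels, and each file was taken for the sample it was deposited under. For the arrays of slide 1, Day4 among them, the array position in the file name differs from the position in the header, as if the slide had been turned, and this was not resolved here. Control and outlier spots were dropped, log2 values of repeated spots were averaged, and quantile normalization was done with limma 3.58.1 in R 4.3.3. Later steps used Python 3.11.15, numpy 2.4.6 and pandas 2.3.3, and figures matplotlib 3.10.9. The scripts were tested on simulated data.

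Probe accessions were matched to symbols through a RefSeq table of GRCm38.p6, used for names only, since the array was designed on an older build. Of 55681 probes, 26300 matched, to 19897 genes, and 29381 stayed without a name. Of these genes, 5339 had several probes. Each gene was represented by its brightest probe (mean of 5 arrays), and 20 genes without a value had another probe well above background. The floor for dim probes was 4.05 at Day4 and 4.66 at Day7, and 115 genes that were no brighter on the array where they were well above background than on the other, once so bounded, had no fold and entered medians at 0. No p-values were computed, and no paired analysis was possible.

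The members and lists were chosen with earlier results of these data known. The genes named are Dcx, Isl1, Shh, Fabp7 and further cell type markers, the 20 largest measured changes and the 10 largest lower bounds each way, up to 5 genes each way from each of 35 lists (981 genes), genes of lists whose probes disagree, genes nearest the threshold the Hox genes, and Kdr as the brightest of its list. Not every gene of this rule is reported. Symbols of 4 list genes were updated, and 10 list genes without a named probe (Mnx1, Slc6a5, Syt5, Scn9a, Scn3b, Tet1, Hspa1b, Rian, H19 and Peg13) were not analysed here. Promoters came from RefSeq (GRCm38.p6).

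Alternatives were a shift to the 75th percentile, raw scale without normalization, normexp (offset 50, run on median spot signals), the deposited log2 table, another detection flag, no filter, both arrays well above background, the mean over probes, no requirement on direction, quantile normalization over Day4 and Day7 alone, 1.5-fold and 4-fold, and 2-fold in every probe. Normalization without the Day2 array was chosen after seeing the data. A slide block could not be fitted.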

Additional observations from a re-analysis of the deposited data

How the results depend on the processing

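No paired analysis was possible because there was 1 array per time point, and a slide block could not be fitted, since Day7 was the only array on its slide. Of 295 named genes past 2-fold, 287 kept their direction and passed 2-fold in the deposited log2 values and equally with the 75th percentile, 264 under normexp, 242 when both arrays had to be well above background (53 had no value), 294 without the Day2 array, an alternative chosen after seeing the data, and 230 without normalization, under which 17 reversed.

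Without normalization 8257 genes were raised and 522 lowered, so 94.1% of changed genes were raised against 49.4%, the median of all genes shifted by 1.18, 20 lists in place of 10 had a median of 1 or more, and 0 in place of 7 had one of -1 or less. The overall brightness of an array enters these values by construction. The reversed changes were 0.23 for the Hox median, 0.13 for Nanog, 0.21 for Tdrd12, 0.0937 for Itgal, 0.0334 for Gadd45g, 0.18 for Sim2, 0.0825 for Ccng1, 0.19 for Trp53inp1, 0.29 for Ackr3, 0.0727 for Hoxb2, 0.23 for Hoxb8, 0.24 for Hoxc6, 0.13 for Tfap2a, 0.26 for Pfkl, 0.16 for B2m, 0.30 for Gusb, 0.0428 for Impact and 0.14 for Grb10. List medians that turned positive there were given with their lists. The all-gene median shifted by -0.13 with the 75th percentile (2560 raised, 3286 lowered) and by -0.12 in the deposited values (2565 and 3274).

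At 4-fold 1378 genes were raised and 693 lowered, and at 1.5-fold 3865 were raised and 4829 lowered, as a change of threshold must give. With 2-fold required in every probe, 2585 genes were raised and 2704 lowered. Under normexp 2160 genes were raised and 2086 lowered, with both arrays well above background 2251 and 2543, and without the Day2 array 2877 and 2985. Dim genes limit the reach of these arrays, and 3815 had no value.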

Other observations

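Over all genes 17.3% were raised and 17.8% lowered, which is the reference for the lists given here. Of 30 glycolysis and hypoxia genes, 8 were raised and 4 lowered. The median of this list, 0.02, turned to -0.15 with the 75th percentile, to -0.14 with deposited values and to -0.01 with the mean over probes. Isoforms known from brain were among the raised genes: Eno2, the neuronal enolase, was at 9.10 at Day4 and 11.62 at Day7 (5.74-fold), Hk1 at 11.99 at Day4 and 14.68 at Day7 (6.48-fold) and Pfkp at 8.88 at Day4 and 11.83 at Day7 (7.72-fold). The other Hk1 probe rose by only 0.71 and did not pass 2-fold. The hypoxia-responsive genes Egln3 and Bnip3 rose 3.41-fold and 3.10-fold, whereas the glucose transporter genes Slc2a1 and Slc2a3 fell 3.37-fold and 3.10-fold and Car9 2.81-fold. Pfkl, the liver isoform, was lowered (-1.06), but its change was 0.26 without normalization. Of 26 ribosomal and housekeeping genes, 3 were lowered, and the median of -0.15 became 0.52 without normalization and -0.80 both with the 75th percentile and with deposited values. Actb was at 18.44 at Day4 and 18.65 at Day7, Ppia at 18.36 at Day4 and 18.48 at Day7 and Rpl5 at 16.38 at Day4 and 15.67 at Day7. B2m and Gusb were lowered (-1.10 and -1.02), with changes of 0.16 and 0.30 without normalization. Of 22 stress and immediate early genes, 9 were lowered and 2 raised, and the median of -0.92 became 0.33 without normalization. Atf3, induced by stress, fell 12.1-fold from 11.56, and Ier2, Trib3 and Junb fell 5.59-fold, 4.40-fold and at least 4.37-fold. Jun, which is also used in axons, rose 2.95-fold, and Arc 2.32-fold. The chaperone genes Hsp90aa1 and Hspa5 were at 16.39 at Day4 and 16.51 at Day7 and at 15.78 at Day4 and 15.88 at Day7.

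Single imprinted and ciliary genes changed strongly. Of 21 imprinted genes on the array, 8 were raised and 3 lowered, against 17.3% raised and 17.8% lowered over all genes. The median of this list was 0.08 and turned to -0.05 with the mean over probes. Usp29 had 5.26 in ES cells, 3.59 at Day2, 3.71 at Day3, 6.31 at Day4 and 11.41 at Day7 (the signal did not stand well above background at Day3) and rose 34.2-fold. Nnat, a membrane protein of young neurons, was at 12.96 at Day4 and 16.50 at Day7 (11.7-fold), and Magel2, Snrpn and Ndn, neighbours in the Prader-Willi region, rose 4.87-fold, 4.41-fold and 3.46-fold. Peg10 fell 4.48-fold. The probes of Peg3 were at 11.82 and 11.90 and at 9.90 and 7.70. Igf2 was at 10.62 at Day4 and 9.79 at Day7. Of 16 genes of surface ectoderm, choroid plexus and motile cilia, 5 were raised, 4 lowered and 2 were well above background on neither array. The shares over all genes were 17.3% raised and 17.8% lowered, and the median of this list was 0.60. Foxj1, the factor of motile cilia that the floor plate also carries, had 7.15 in ES cells, 6.94 at Day2, 6.73 at Day3, 6.12 at Day4 and 11.29 at Day7 and rose 35.9-fold. The axonemal genes Dynlrb2 and Tekt1 rose at least 9.37-fold and 3.87-fold, and Otx2 4.28-fold. The folate receptor gene Folr1 was at 13.32 at Day4 and 11.47 at Day7 (3.61-fold), Clic6 fell 4.33-fold and Tfap2c 2.61-fold, and the epidermal keratin gene Krt14 was at 6.93 at Day4 and 6.89 at Day7.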
